A study of Mus musculus with 193 samples.

Results

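Cells labelled as Rhox10 knockout (KO) were compared with wild-type (WT) cells at postnatal day 3 (P3). The comparison held 69 cells labelled KO and 71 WT cells, together 140 cells, and the series holds 53 more, which are WT cells of postnatal day 7. They were chosen by the group name at the start of each column of the deposited table. All cells came from mouse testes and were sorted for the green fluorescence of an Id4-eGFP reporter, which WT cells and cells labelled KO carried alike. Each deposited sample was a single cell, with cDNA made on a Fluidigm C1 chip by SMARTer chemistry. Letters in the sample titles, whose meaning the labels do not give, divide the cells into sets. The KO label covered sets A (21 cells), B (12 cells) and C (36 cells), and the WT label sets A (16 cells) and B (55 cells). The labels give neither the Rhox10 allele, nor the number of animals pooled, nor the sort gate.

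Spermatogonial stem cells arise in the days after birth, when prospermatogonia leave quiescence and settle at the edge of the seminiferous cords. Id4, an inhibitor of basic helix-loop-helix factors, marks the cells with the most stem cell activity in mice. Rhox10 is an X-linked homeobox gene expressed in germ cells, one of a large cluster of reproductive homeobox genes. The maintenance of stem cells in mice depends on GDNF and FGF. GDNF acts through the receptors Gfra1 and Ret, MAP kinases and PI3K carry the signals inward, and transcription factors such as Etv5, Bcl6b and Lhx1 respond.

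The values are RPM, reads per gene relative to the cell's total, and each cell was scaled to 2783 genes that were above 1 RPM in at least 90% of the P3 cells. A level is the log2 of scaled RPM + 1, averaged over the cells of a set. A group's level averages its sets with equal weight, and a difference is the level of cells labelled KO minus that of WT cells. Each of the 3 KO-labelled sets can be paired with each of the 2 WT sets, and the range over these 6 pairs shows how far a difference repeats. A gene that is higher or lower in all 6 pairs has set means that do not overlap between the labels, while its single cells can overlap. Since no animal is named, each group counts as 1 sample: no test was made, and all statements describe these cells. SDs are between cells.

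Reads on genes had a median of 608841 per cell in cells labelled KO and 514921 in WT cells, and ranged from 25424 to 1373776 over the 140 cells. Cells labelled KO had a median of 6991 genes above 1 RPM, against 7072 for WT cells. Ddx4 and Dazl, RNA regulators that define germ cells, were above 1 RPM in all cells of all 5 sets. KO-labelled set A stood apart from the other sets, with low levels of cell cycle and stem cell genes that are described below. WT set A was, to a smaller extent, also below WT set B in cell cycle genes. KO-labelled set A also held more RNA of Sertoli cell markers. Summed over 11 markers, medians were 45.2, 2.14 and 1.30 scaled RPM in KO-labelled sets A, B and C (highest cell of set A 2411). In WT sets A and B they were 10.3 and 1.47, so by median set A was the higher under both labels. By mean, WT set A was the lower WT set, at 14.6 against 39.3 in WT set B. The highest cells of WT sets A and B had 53.3 and 829. Of these 11 markers Clu had a level of 1.40 in cells labelled KO and 1.84 in WT cells, and Sox9 1.13 and 0.70, while the other 9 were below 1 in both groups. Amh was above 1 RPM in 2 cells labelled KO and no WT cell. The sum passed 100 scaled RPM in 3 cells of KO-labelled set A and 5 cells of WT set B. The 11 myoid and stromal markers summed to medians of 16.2, 2.71 and 2.61 in KO-labelled sets A, B and C, against 1.63 and 1.96 in WT sets A and B. Leydig and erythroid markers had a median of 0 in every set. The part of these markers in the differences was not tested, and values without KO-labelled set A are given where they bear on a result.

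The targeted gene does not separate the labels. Rhox10 (ENSMUSG00000053909.8, chromosome X, 38066475 to 38071691, plus strand, mm10, a protein-coding gene) had mean levels of 2.65 ± 1.60, 2.43 ± 1.38 and 0.74 ± 0.98 in KO-labelled sets A, B and C, against 1.75 ± 1.45 and 1.55 ± 1.15 in WT sets A and B. It was above 1 RPM in 15 of 21, 9 of 12 and 10 of 36 cells of the KO-labelled sets, and in 10 of 16 and 35 of 55 cells of the WT sets. KO-labelled sets A and B were thus above both WT sets and set C below both. The difference was 0.29 (pairs -1.0 to 1.09), and -0.06 without KO-labelled set A, 0.05 without set B and 0.89 without set C. Reads on a part of the gene that a deletion leaves in place would still be listed. The labels do not give the allele, and whether such reads occur here was not tested. Every direction below is therefore one between the labels, and the cells are called labelled KO throughout. Within 5 Mb of Rhox10, 22 genes had a mean level of at least 1. Of these, 4 were higher in all 6 pairs (Nkrf, Ndufa1, Rhox5 and Xiap) and 2 lower (Il13ra1 and Zbtb33). Over all 7856 genes of that level, 10.7% were higher and 11.7% lower in all 6 pairs, and over the 236 such genes of chromosome X the shares were 12.3% and 13.1%.

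Id4, Lin28a, Arrdc4 and Klf13, the genes with which the comparison was given, were each on 1 side in all 6 pairs. Id4 (ENSMUSG00000021379.2, chromosome 13, 48261228 to 48266026, plus strand) had the lowest difference of all genes whose mean level was at least 2. Its mean level was 1.22 ± 1.59, 2.24 ± 1.18 and 2.05 ± 1.40 in KO-labelled sets A, B and C, against 3.80 ± 0.79 and 3.58 ± 1.29 in WT sets A and B. Single cells labelled KO ran from 0 to 5.15 with a median of 1.78, and WT cells from 0 to 5.42 with a median of 3.75. Cells thus overlapped widely, but all 3 set means of cells labelled KO lay below both WT means. The difference was -1.85 (pairs -2.58 to -1.33), and scaled RPM averaged 4.95 for the KO label and 15.1 for the WT label, a ratio of WT to KO of 3.06. Id4 was above 1 RPM in 9 of 21, 11 of 12 and 27 of 36 cells of KO-labelled sets A, B and C. In WT sets A and B it was so in 16 of 16 and 52 of 55 cells. Pooled, this was 47 of 69 cells labelled KO, 68.1% (95% interval 55.8% to 78.8%, exact, counting error only, sets ignored), and 68 of 71 WT cells, 95.8% (88.1% to 99.1%). The remaining 22 cells labelled KO and 3 WT cells were sorted on the reporter but held no Id4 RNA above that value. The part of the sort gate in the Id4 level was not tested.

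Lin28a (ENSMUSG00000050966.9, chromosome 4, 134003330 to 134018841, minus strand) encodes an RNA-binding protein that blocks the maturation of let-7 and is found in undifferentiated spermatogonia. Its mean level was 2.58 ± 1.63, 2.15 ± 1.03 and 2.93 ± 1.39 in KO-labelled sets A, B and C, against 3.68 ± 1.40 and 4.18 ± 0.91 in WT sets A and B. The 3 KO-labelled sets were all below both WT sets, with set B lowest. The difference was -1.38 (pairs -2.03 to -0.76) and -1.39 without KO-labelled set A. Cells labelled KO ran from 0 to 5.84 with a median of 2.74, and WT cells from 0.82 to 6.03 with a median of 4.25. Its paralogue Lin28b, which acts on let-7 in the nucleus, differed by -0.81 (pairs -0.92 to -0.73), with set levels of 1.63, 1.61 and 1.49 in cells labelled KO and 2.37 and 2.41 in WT cells.

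Arrdc4 (ENSMUSG00000042659.15, chromosome 7, 68736995 to 68749241, minus strand) encodes an alpha-arrestin, a relative of Txnip that takes part in the traffic of membrane proteins. Its mean level was 4.28 ± 1.91, 2.39 ± 1.37 and 1.58 ± 1.46 in KO-labelled sets A, B and C, against 0.89 ± 0.99 and 0.91 ± 1.02 in WT sets A and B. KO-labelled set A was far above the rest and set C closest to the WT sets. The difference was 1.85 (pairs 0.67 to 3.39), and 1.09 without KO-labelled set A. Scaled RPM averaged 36, 6.76 and 4.24 in KO-labelled sets A, B and C, against 1.33 and 1.55 in WT sets A and B. Arrdc4 was above 1 RPM in 51 of 69 cells labelled KO and 28 of 71 WT cells. The other measured members of its list, Txnip (-0.30) and Arrdc3 (-0.04), had pairs of both signs.

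Klf13 (ENSMUSG00000052040.10, chromosome 7, 63886351 to 63938915, minus strand) encodes a Krüppel-like zinc finger factor that binds GC-rich promoter elements. Its mean level was 4.71 ± 0.98, 4.95 ± 0.49 and 4.34 ± 0.59 in KO-labelled sets A, B and C, against 3.56 ± 0.94 and 3.37 ± 0.85 in WT sets A and B. Cells labelled KO ran from 2.84 to 6.13 with a median of 4.49, and WT cells from 0 to 4.81 with a median of 3.57. It was detected above 1 RPM in 69 of 69 cells labelled KO and 70 of 71 WT cells, so the groups differed in level rather than in the share of cells with the RNA. The difference was 1.20 (pairs 0.78 to 1.59) and 1.18 without KO-labelled set A. 

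**Figure D1:**
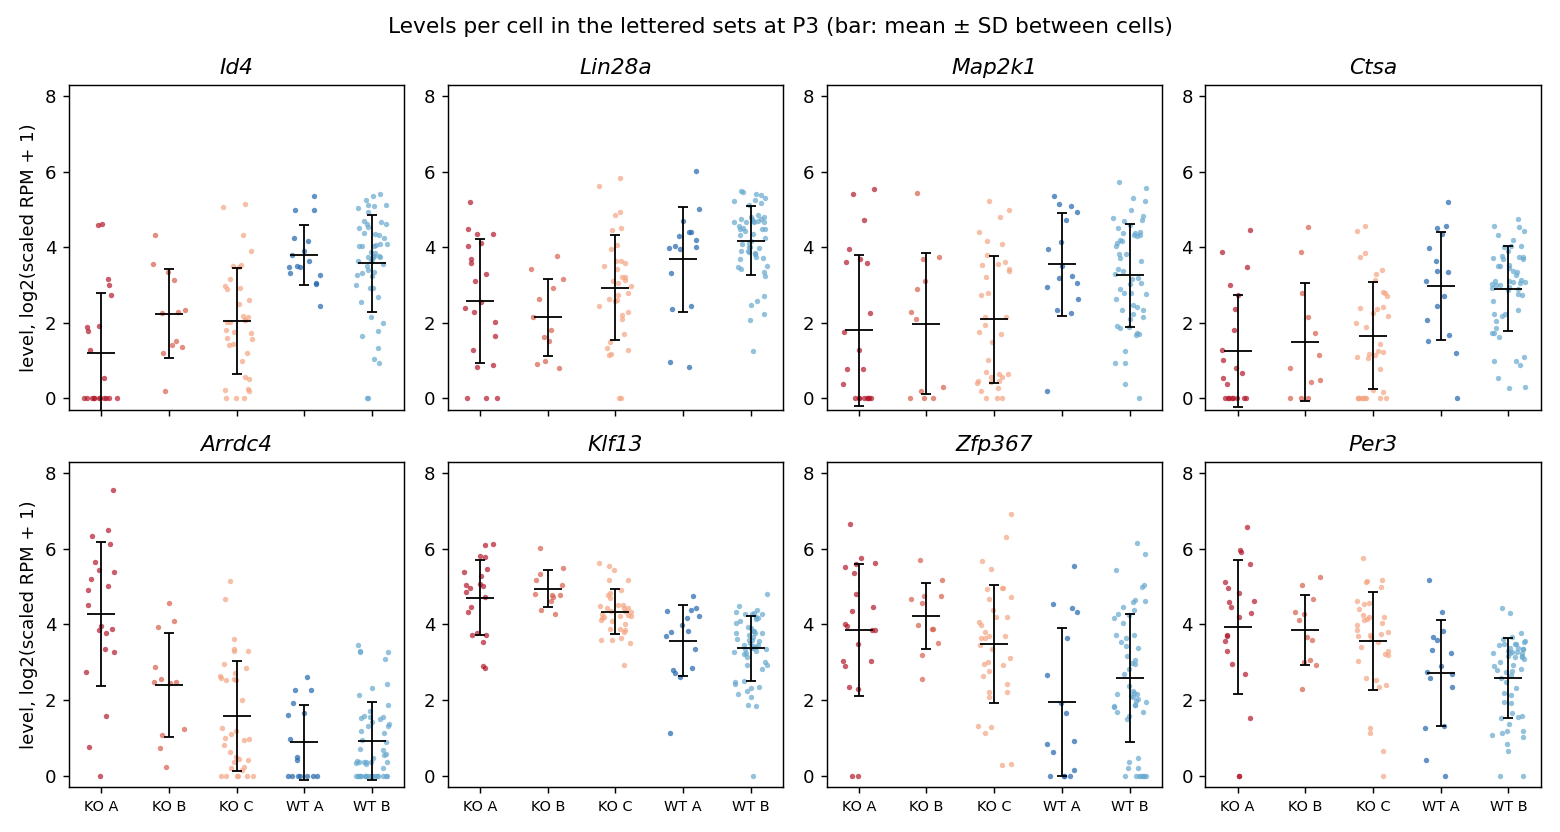
Level of 8 genes in each P3 cell, as log2(scaled RPM + 1), by lettered set: KO-labelled sets A, B and C at left and WT sets A and B at right. Points are cells and bars are the mean ± SD between cells. Id4, Lin28a, Map2k1 and Ctsa have lower means in all 3 KO-labelled sets than in both WT sets, and Arrdc4, Klf13, Zfp367 and Per3 higher ones, while single cells overlap.

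The sequences just upstream of these 4 genes are shown because the comparison was given with these genes, 2 of them higher and 2 lower in cells labelled KO. Each is the 250 bases before the gene's start in RefSeq (GRCm38.p6, the assembly of mm10), 5′ to 3′ on the gene's strand. RefSeq starts can differ from the gene coordinates given above, which come from GENCODE. The Id4 window ends at 48261115, short of the start given above, 48261228. The Lin28a window begins at 134018817, inside the gene as given above, which ends at 134018841. Capitals mark matches on either strand to the E-box CACGTG, which basic helix-loop-helix proteins bind, or to the GC box GGGCGG, which SP and KLF factors bind.
Id4 (chr13:48260866-48261115, plus strand): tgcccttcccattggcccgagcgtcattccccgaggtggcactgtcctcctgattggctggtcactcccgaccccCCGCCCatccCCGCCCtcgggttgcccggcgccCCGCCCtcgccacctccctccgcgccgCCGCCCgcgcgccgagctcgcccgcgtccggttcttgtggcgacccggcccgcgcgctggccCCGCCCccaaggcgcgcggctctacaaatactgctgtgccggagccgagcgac
Lin28a (chr4:134018817-134019066, minus strand): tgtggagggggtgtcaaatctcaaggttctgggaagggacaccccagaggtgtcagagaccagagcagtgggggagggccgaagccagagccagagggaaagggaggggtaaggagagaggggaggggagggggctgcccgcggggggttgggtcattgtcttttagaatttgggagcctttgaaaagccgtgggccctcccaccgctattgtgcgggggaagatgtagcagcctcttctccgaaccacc
Arrdc4 (chr7:68749239-68749488, minus strand): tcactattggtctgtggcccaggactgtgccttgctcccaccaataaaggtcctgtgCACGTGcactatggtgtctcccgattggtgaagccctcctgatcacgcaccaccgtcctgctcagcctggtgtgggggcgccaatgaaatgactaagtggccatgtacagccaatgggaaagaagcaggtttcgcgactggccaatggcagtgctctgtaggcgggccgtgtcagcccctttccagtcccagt
Klf13 (chr7:63938916-63939165, minus strand): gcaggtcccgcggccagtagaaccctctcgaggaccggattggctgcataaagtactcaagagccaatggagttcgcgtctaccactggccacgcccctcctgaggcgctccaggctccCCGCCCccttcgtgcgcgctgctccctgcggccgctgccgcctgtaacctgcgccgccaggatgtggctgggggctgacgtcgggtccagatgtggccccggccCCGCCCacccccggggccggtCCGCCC
The Id4 window held 5 GC boxes and the Klf13 window 3, all read on the opposite strand as CCGCCC. The Arrdc4 window held 1 E-box, and the Lin28a window neither motif. Of 32851 RefSeq promoters of the same length, 6.02% held the E-box and 32.7% the GC box. A match describes the letters and is no evidence of binding.

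Over 4869 genes whose mean level was at least 2, 504 were higher in all 6 pairs (10.4%) and 610 lower (12.5%), and the median difference was -0.02. A difference of at least 1 in size was rare: 23 genes were higher by at least 1 and in all 6 pairs (0.472%) and 58 lower (1.19%). In 27 genes (0.555%) the closest pair of sets was at least 0.5 apart with KO-labelled sets higher, and in 60 genes (1.23%) with KO-labelled sets lower. Without the 8 cells of high Sertoli marker sums, 30 genes were higher by at least 1 and 62 lower. Without KO-labelled set A, where 4 pairs remain, 28 were higher and 62 lower by at least 1. Without KO-labelled set C the counts were 143 and 131.

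The 15 lowest differences among genes of that level on 1 side in all 6 pairs began with Id4. After it came Snhg4, a host gene of small nucleolar RNAs (-1.74, pairs -2.84 to -0.22), and Trip13, an ATPase of meiotic recombination and the spindle checkpoint (-1.63, pairs -3.10 to -0.34). Trip13 had set levels of 1.28, 2.92 and 4.01 in KO-labelled sets A, B and C against 4.35 and 4.39 in WT sets A and B, and its difference was -0.90 without KO-labelled set A. Yy2, a zinc finger factor copied from Yy1, differed by -1.48 (pairs -1.98 to -0.88) and Epas1, which encodes the hypoxia factor HIF-2 alpha, by -1.35 (pairs -1.65 to -0.86). Ctsa, the lysosomal protective protein, had levels of 1.26 ± 1.47, 1.5 ± 1.55 and 1.66 ± 1.42 in KO-labelled sets A, B and C, against 2.98 ± 1.43 and 2.90 ± 1.12 in WT sets A and B. Its difference of -1.47 (pairs -1.73 to -1.24) was among the most even over the sets. Abca1, which exports cholesterol, differed by -1.46 (pairs -2.13 to -0.73), and Pitpna, which carries phosphatidylinositol between membranes, by -1.44 (pairs -2.04 to -0.54). Atp2c1, the calcium and manganese pump of the Golgi, differed by -1.43 (pairs -1.95 to -0.75). H2-T23, a nonclassical MHC class I gene whose reads can be shared with close relatives, differed by -1.38 (pairs -2.13 to -0.46). Plekhh1 (-1.48), Tmc7 (-1.44), Neb (-1.37), Map2k1 and Lin28a complete the 15.

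The 15 highest differences, chosen likewise and so without Arrdc4, whose mean level was below 2, began with Zfp367, a zinc finger gene. Its levels were 3.85 ± 1.75, 4.22 ± 0.88 and 3.48 ± 1.56 in KO-labelled sets A, B and C, against 1.95 ± 1.96 and 2.59 ± 1.70 in WT sets A and B, a difference of 1.58 (pairs 0.89 to 2.27). It was above 1 RPM in 65 of 69 cells labelled KO and 53 of 71 WT cells. Myo9b, an unconventional myosin, had levels of 3.83, 3.87 and 3.39 in KO-labelled sets A, B and C against 2.25 and 2.42 in WT sets A and B (1.36, pairs 0.97 to 1.63). Per3, a repressor of the circadian clock, had levels of 3.93 ± 1.77, 3.85 ± 0.92 and 3.56 ± 1.30 in KO-labelled sets A, B and C, against 2.71 ± 1.40 and 2.59 ± 1.06 in WT sets A and B, a difference of 1.13 (pairs 0.85 to 1.35). In Myo9b and Per3 the KO-labelled sets lay close together and apart from the WT sets. In Zfp367 the sets of each label were more spread, from 3.48 to 4.22 and from 1.95 to 2.59. Rev1, a polymerase scaffold of translesion synthesis, differed by 1.12 (pairs 0.52 to 1.61), Asb8, a SOCS-box protein, by 1.15 (pairs 0.68 to 1.48), and Abca3, a lipid transporter, by 1.17 (pairs 0.35 to 1.78). Marveld2, which encodes the junction protein tricellulin, differed by 1.42 (pairs 0.27 to 2.66), and by 0.85 without KO-labelled set B, where its level was 5.41. Pet2 differed by 1.15, and by 0.36 without KO-labelled set A. Mn1, a transcriptional coregulator, differed by 1.12, and by 0.65 without WT set B, and the aminopeptidase gene Dnpep differed by 1.11 (pairs 0.29 to 1.67). Phf21a, Klf13, Atp2b4, Ehmt2 and Gab1 are described with their classes. Leaving out any of the 5 sets changed the sign of none of these 30 genes. This was fixed by the choice, since they were picked because their set means do not overlap.

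**Figure D2:**
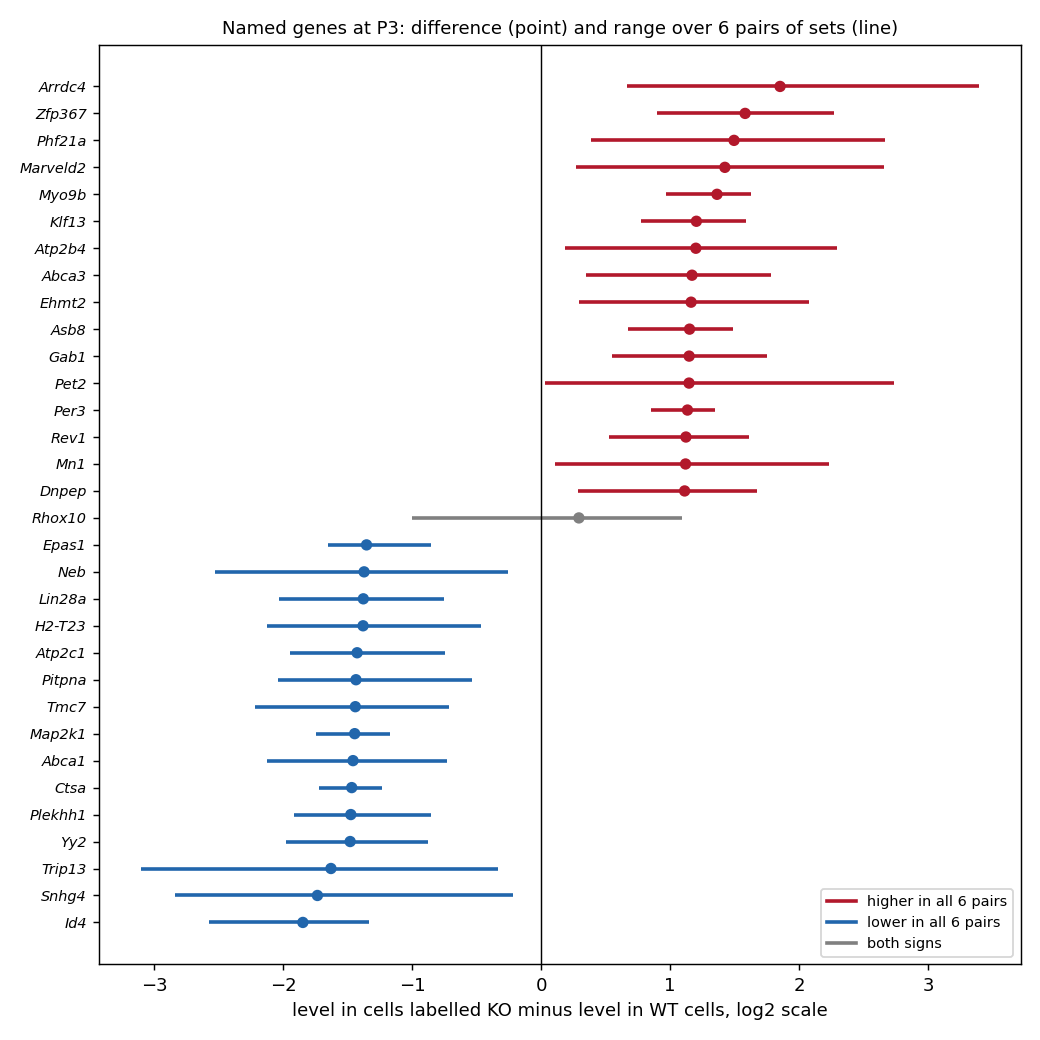
Difference in level, cells labelled KO minus WT cells, on the log2 scale, for the 15 highest and 15 lowest genes, Arrdc4 and Rhox10. Points are group differences and lines the range over the 6 pairs of sets. Rhox10 alone has pairs of both signs, from -1.0 to 1.09. The 15 highest and 15 lowest genes were chosen as having none, and Arrdc4 was given with the comparison.

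Of 394 transcription factors in the table, 209 had a mean level of at least 1. Among these, 29 were higher in all 6 pairs (13.9%) and 20 lower (9.57%), where 10.7% and 11.7% of all genes were. The class median was 0.11 (pairs -0.02 to 0.17), and -0.00023 without KO-labelled set B. In the 4 pairs without KO-labelled set A, 47 were higher and 32 lower, or 22.5% and 15.3%, against 18.6% and 19.7% of all genes. Thus both directions occurred at shares near the background.

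Several families showed members on 1 side, beside shares of 10.7% higher and 11.7% lower over all genes. In lists this short 3 genes already make a high share. The counts of all lists below stand beside the same shares. Of 13 measured KLF and SP factors, 3 stood higher in all 6 pairs and none lower: Klf13, Klf4, a zinc finger factor of the pluripotency network (0.79, pairs 0.22 to 1.81, and 0.33 without KO-labelled set A), and Sp2 (0.28, pairs 0.10 to 0.53, and 0.18 without WT set A). Of 11 ETS factors and partners, 3 were higher and none lower, among them Gabpb2, the beta subunit of GA-binding protein (0.72, pairs 0.52 to 0.95), with set levels of 3.07, 3.20 and 3.09 in cells labelled KO and 2.25 and 2.55 in WT cells. Gabpb1, its companion subunit, differed by 0.64 (0.34 without WT set A) and Elf4 by 0.57 (0.31 without KO-labelled set B). Of 11 nuclear receptors, none was higher and 3 were lower: Nr1d1, the clock repressor REV-ERB alpha (-0.73, with -0.35 without WT set A and -1.11 without WT set B), Nr3c1, the glucocorticoid receptor (-0.61, pairs -0.84 to -0.41), and Nr5a2 (-0.52, pairs -0.81 to -0.11). With 1 set left out, the median of KLF and SP factors (0.20) ran from 0.14 to 0.33 and that of ETS factors (0.15) from 0.026, without WT set A, to 0.28. The median of nuclear receptors (-0.15) ran from -0.22 to -0.037, lowest in size without KO-labelled set C, and was negative under all alternatives but 1.

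The bHLH and ID list had 6 members higher and 4 lower of 27. Beside Id4 and Epas1, Mxi1, an antagonist of MYC, was lower (-0.63, pairs -0.79 to -0.39). Tcf3, which encodes the E proteins E12 and E47 that ID proteins bind, was higher by 0.78 (pairs 0.40 to 1.24), with set levels of 2.42, 2.74 and 2.44 in cells labelled KO against 1.5 and 2.02 in WT cells, and by 0.52 without WT set A. Bhlhe40, a clock-linked repressor, differed by 0.96 (0.55 without KO-labelled set B), and Mycn by 0.76 (0.49 without WT set A). Among other families Bcl6b, a repressor that GDNF induces in cultured stem cells, differed by -1.52 (pairs -2.27 to -0.52), with set levels of 0.35, 0.72 and 1.84 in KO-labelled sets A, B and C against 2.37 and 2.62 in WT sets A and B. E2f6, a repressive E2F, differed by -1.31 (pairs -2.30 to -0.14), and Eomes, a T-box factor found in a subset of stem cells, by -0.83 (pairs -1.32 to -0.29). Pou2f1, the widely expressed factor OCT1, was higher by 0.74 (pairs 0.20 to 1.13), Stat3 by 0.68 (pairs 0.06 to 1.05) and Adnp2, a zinc finger homeobox factor, by 0.97 (0.64 without KO-labelled set B). Dmrt1, which restrains meiosis in spermatogonia, differed by 0.57, and by 0.17 without WT set A and 0.96 without WT set B.

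Of 286 chromatin genes, 240 had a mean level of at least 1. Of these 29 were higher (12.1%) and 22 lower (9.17%) in all 6 pairs, against 10.7% and 11.7% of all genes. Their median was 0.07 (pairs -0.02 to 0.21) and 0.0052 when cells were scaled to the sum over all genes. Without KO-labelled set A, 60 were higher and 36 lower in all 4 pairs, or 25% and 15%, against 18.6% and 19.7% of all genes. The list of H3K4, H3K36 and H3K79 methyltransferases and their partners was mixed, with 7 of 24 higher and 4 lower. Ash2l, a core subunit of the MLL and SET1 complexes, was higher by 0.74 (pairs 0.37 to 1.07), Hcfc1, a scaffold of the same complexes, by 0.65 (pairs 0.47 to 0.89), and Setd3 by 0.70 (pairs 0.27 to 1.33). Dpy30, another core subunit, differed by -0.60 (pairs -0.92 to -0.35). Paxip1, the PTIP subunit, differed by -0.80 (pairs -1.29 to -0.35) and Setd2, the main H3K36 methyltransferase, by -0.55 (-0.33 without WT set A). Members of the same complexes thus stood on opposite sides.

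Kdm5b, which removes H3K4 methylation, was the only gene of the 22 in the lysine demethylase list that was higher in all pairs, by 0.99 (pairs 0.47 to 1.64), with set levels of 6.51, 5.92 and 5.75 in cells labelled KO and 4.88 and 5.28 in WT cells. Kdm6a, the X-linked H3K27 demethylase, differed by -0.38 (pairs -0.47 to -0.29), and its Y-linked copy Uty by -0.80 (-0.33 without WT set A and -1.27 without WT set B). Phf21a, the reader of unmethylated H3K4 in the LSD1 corepressor complex, was higher by 1.5 (pairs 0.38 to 2.66), with set levels of 4.64, 3.42 and 2.37 in KO-labelled sets A, B and C against 1.97 and 1.99 in WT sets A and B, and by 0.91 without KO-labelled set A. Ehmt2, the H3K9 methyltransferase G9a, was higher by 1.16 (pairs 0.29 to 2.08), with set levels of 3.72, 2.88 and 2.18 against 1.64 and 1.89 in WT sets A and B, and by 0.77 without KO-labelled set A. Both genes were highest in KO-labelled set A, where the Sertoli marker sum was highest. Without the 8 cells of high Sertoli marker sums the differences were 1.51 for Phf21a and 1.13 for Ehmt2. Only 3 of the 21 cells of KO-labelled set A were left out by this, and the part of Sertoli RNA was not tested. Cbx3, the heterochromatin protein HP1 gamma, differed by -0.50 (-0.32 without WT set B). Dnmt3b, a de novo DNA methyltransferase, was the only gene of its list of 15 on 1 side (-0.81, pairs -1.46 to -0.07).

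Among 57 remodellers and bromodomain proteins 10 were higher and 4 lower, with a median of 0.10, and of 0.0045 when cells were scaled to the sum over all genes. Arid2, the signature subunit of the PBAF form of SWI/SNF, differed by 0.89 (0.46 without WT set A), Arid4a by 0.87 (0.41 without KO-labelled set A) and Smarcd2 by 0.74 (0.27 without WT set A and 1.21 without WT set B). On the other side stood Brd9, a bromodomain subunit of the noncanonical SWI/SNF complex (-1.13, pairs -1.70 to -0.36), and Smarca5, the ISWI ATPase (-0.74, pairs -1.12 to -0.50), with set levels of 3.71, 4.23 and 4.18 in cells labelled KO and 4.73 and 4.83 in WT cells. In the acetylation and corepressor list, with 5 of 36 higher and 3 lower, the coactivator Ncoa2 was higher by 0.90 (pairs 0.48 to 1.30) and the deacetylase Hdac2 differed by -0.84, with -1.28 without WT set A and -0.40 without WT set B. Polycomb genes had 2 members higher (6.45%) and 3 lower (9.68%) of 31, against 10.7% and 11.7% of all genes. Kdm2b, itself a demethylase, which brings a PRC1 complex to CpG islands, differed by 0.76 (0.50 without KO-labelled set B). Bap1, which removes ubiquitin from histone H2A, differed by -0.44 (pairs -0.72 to -0.15).

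**Figure D3:**
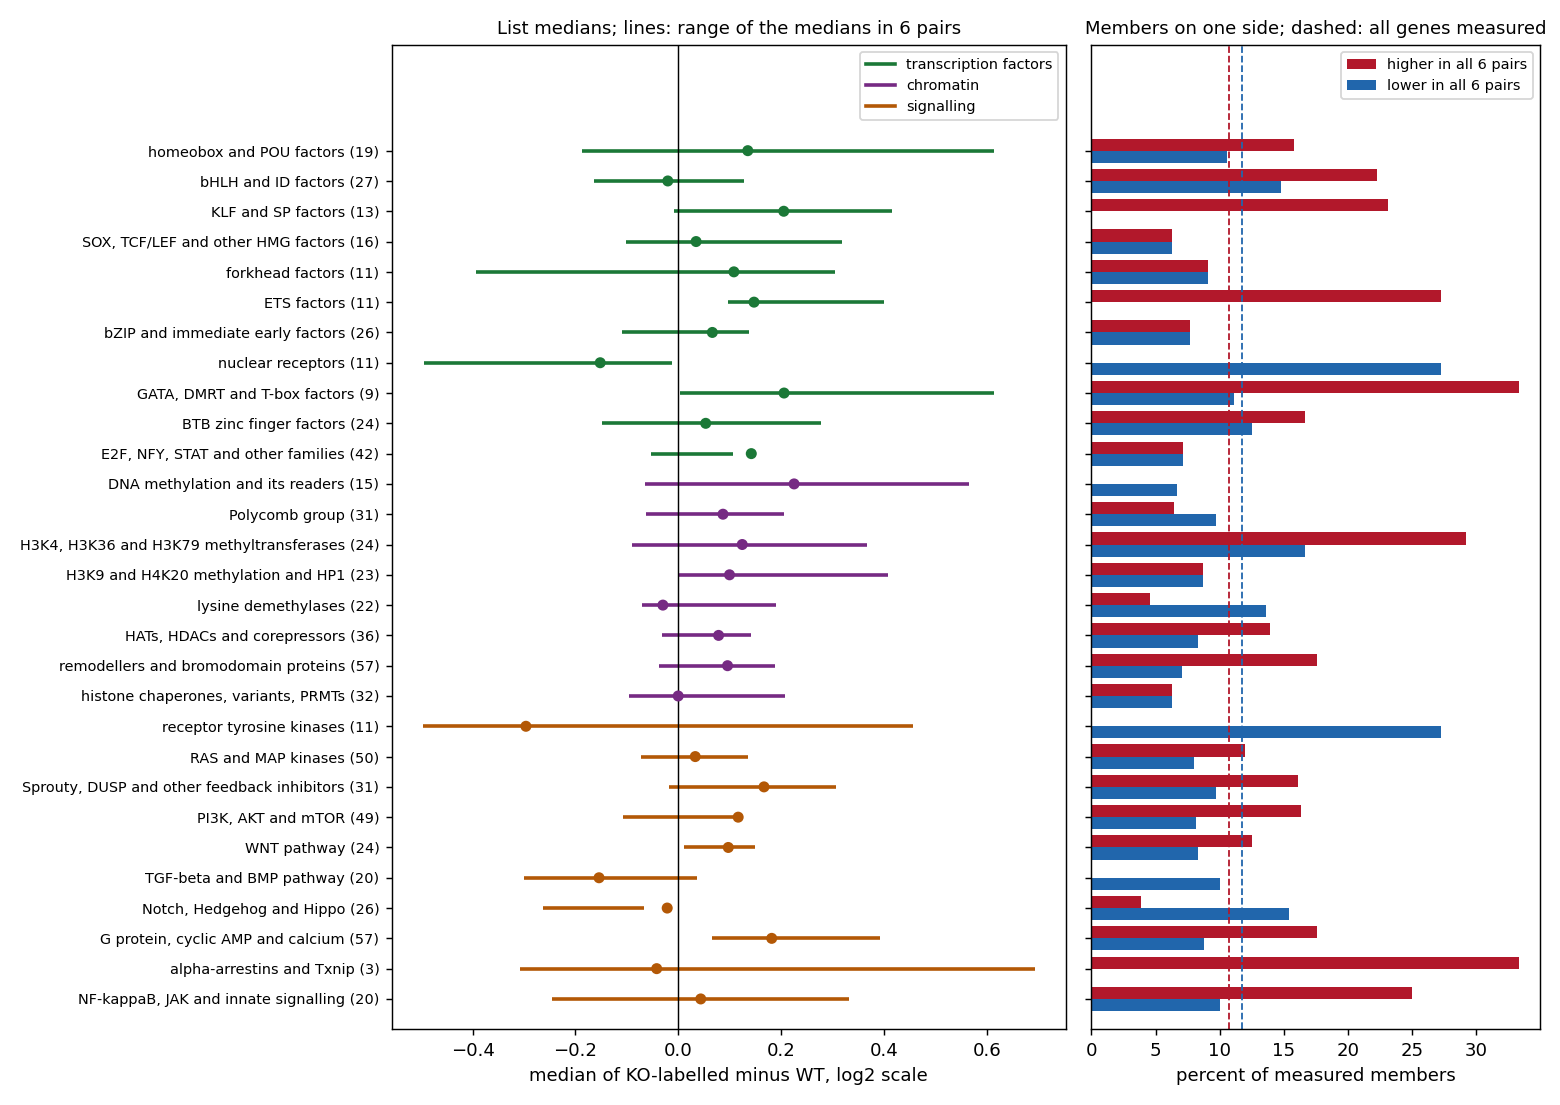
Left, median difference of lists of transcription factors, chromatin and signalling genes (points) with the range of its median in the 6 pairs (lines), on the log2 scale; the number of measured members is in parentheses, and a median over averaged differences can lie outside that range. Right, percent of members higher or lower in all 6 pairs, with the shares over all 7856 genes, 10.7% and 11.7%, as dashed lines; most medians lie within 0.2 of 0, and short lists reach high shares with 3 genes.

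Signalling genes had 340 measured members, of which 44 were higher (12.9%) and 37 lower (10.9%) in all 6 pairs, against 10.7% and 11.7% of all genes. Their median was 0.04 (pairs -0.02 to 0.11), and turned to -0.0078 when cells were scaled to the sum over all genes. Without KO-labelled set A, 74 were higher and 57 lower in all 4 pairs, or 21.8% and 16.8%, against 18.6% and 19.7% of all genes.

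From the receptors inward, none of 11 receptor tyrosine kinases and GDNF or FGF receptors was higher in all pairs and 3 were lower. Kit, the receptor of differentiating spermatogonia, differed by -0.81 (pairs -1.22 to -0.32), and Ddr1, a collagen receptor, by -1.11 (pairs -1.85 to -0.21). Epha2 differed by -0.90, and by -0.52 without WT set A. The GDNF receptors had pairs of both signs: Ret had set levels of 2.07, 5.21 and 4.66 in KO-labelled sets A, B and C against 5.03 and 4.21 in WT sets A and B, and Gfra1 2.08, 4.71 and 4.15 against 4.04 and 4.25. Only KO-labelled set A was low in both receptors.

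In the RAS and MAP kinase list 6 of 50 were higher (12%) and 4 lower (8%), against 10.7% and 11.7% of all genes. Map2k1 (ENSMUSG00000004936.8, chromosome 9, 64185770 to 64253631, minus strand), which encodes the ERK kinase MEK1, had levels of 1.80 ± 2.01, 1.98 ± 1.86 and 2.09 ± 1.67 in KO-labelled sets A, B and C, against 3.55 ± 1.37 and 3.26 ± 1.37 in WT sets A and B. The difference was -1.45 (pairs -1.75 to -1.17), and 39 of 69 cells labelled KO and 66 of 71 WT cells were above 1 RPM. Its 3 KO-labelled sets were close to each other and all below the WT sets. Shc1, the adaptor that links receptors to RAS, differed by -0.70 (pairs -1.30 to -0.12), and Rps6ka1, the ERK target RSK1, by -0.77 (-0.51 without KO-labelled set A). On the other side, Map2k3, a kinase of the p38 branch, was higher by 0.76 (pairs 0.24 to 1.12) and Map2k7, a kinase of the JNK branch, by 0.77 (pairs 0.16 to 1.25). Gab1, a docking protein below receptor kinases, was at 3.07, 3.04 and 3.04 in KO-labelled sets A, B and C and at 1.32 and 2.48 in WT sets A and B (1.15), so the value depends on the WT set: 0.57 without WT set A and 1.73 without WT set B.

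Feedback inhibitors had 5 of 31 members higher and 3 lower. Spry2, an inhibitor of receptor to ERK signalling, had levels of 3.16 ± 1.47, 1.56 ± 0.85 and 1.17 ± 0.98 in KO-labelled sets A, B and C, against 1.01 ± 0.87 and 0.73 ± 0.69 in WT sets A and B. The difference of 1.09 (pairs 0.16 to 2.43) was mostly that of KO-labelled set A, and 0.50 without it. Dusp11, a phosphatase of RNA 5′ ends, was higher by 0.83 (pairs 0.55 to 1.13) and Pias4, a SUMO ligase that restrains STAT signalling, by 0.78 (pairs 0.42 to 1.05). Of 49 PI3K, AKT and mTOR genes 8 were higher and 4 lower. Pik3r1, the regulatory subunit p85 alpha, differed by -1.10 (pairs -1.35 to -0.90), with set levels of 1.47, 1.32 and 1.05 in cells labelled KO and 2.41 and 2.37 in WT cells, and was above 1 RPM in 29 of 69 cells labelled KO and 56 of 71 WT cells. Pik3c2a, a class II PI3K, differed by -0.77 (pairs -1.05 to -0.33). Tsc1, which restrains mTOR, was higher by 0.78 (pairs 0.21 to 1.35) and Akt1 by 0.55 (0.33 without WT set A).

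In the Notch, Hedgehog and Hippo list 1 of 26 was higher and 4 were lower. Nf2, the Hippo activator merlin, was higher by 1.03 (pairs 0.11 to 1.53). Amot, which holds YAP in the cytoplasm, differed by -1.18 (-0.71 without KO-labelled set A). The coactivators Wwtr1, or TAZ, and Yap1 differed by -0.66 (pairs -1.12 to -0.40) and -0.49 (-0.31 without WT set A). Among 24 WNT genes, 3 were higher and 2 lower, with the receptor Fzd3 at -1.30 (pairs -2.0 to -0.42). Of 57 G protein, cyclic AMP and calcium genes 10 were higher and 5 lower, and the median of 0.18 was 0.073 without KO-labelled set A and 0.10 without WT set B. Atp2b4, a calcium pump of the plasma membrane, differed by 1.20 (0.74 without KO-labelled set B), Camk1d by 1.10 (pairs 0.16 to 1.78) and Gnb1, a G protein beta subunit, by 0.74 (0.42 without KO-labelled set A). Prkacb, a catalytic subunit of protein kinase A, differed by -0.55 (pairs -0.76 to -0.29). The TGF-beta and BMP list had none of 20 higher and 2 lower, Smad1 (-0.50, and -0.31 without WT set B) and Acvr2a (-0.32, pairs -0.59 to -0.12). In the innate signalling list 5 of 20 were higher and 2 lower, among them Rela, the p65 subunit of NF-kappaB (0.50, pairs 0.22 to 0.84).

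Of 14 measured spermatogonial stem cell genes, Id4, Bcl6b and Eomes were lower in all 6 pairs and none was higher. The list median of -0.34 (pairs -1.35 to 0.13) was set by KO-labelled set A, and was 0.23 without it. The mean level of the list was 2.13, 3.28 and 3.27 in KO-labelled sets A, B and C, against 3.38 and 3.38 in WT sets A and B. Etv5, a target of GDNF and FGF signals, had levels of 2.51, 4.25 and 4.29 in KO-labelled sets A, B and C against 3.78 and 4.31 in WT sets A and B, and Foxo1, needed for stem cell upkeep, 4.66, 5.28 and 5.38 against 4.58 and 5.05. Most stem cell genes other than those 3 thus had KO-labelled sets B and C within or above the range of the WT sets. Progenitor genes had 1 of 8 higher and 2 lower, Lin28a and Cdh1, the E-cadherin gene (-0.54, and -0.34 without WT set B). Of 16 differentiating and early meiotic genes, 3 were higher and 2, Kit and Dnmt3b, lower. Stag3, the meiotic cohesin subunit, differed by 0.50 (pairs 0.13 to 0.92) and Dmc1, the meiotic recombinase, by 0.71 (0.47 without KO-labelled set B).

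Of 24 piRNA pathway genes 4 were higher and 2 lower. Mael, which acts in transposon silencing, was higher by 0.44 (pairs 0.29 to 0.64), with set levels of 6.94, 6.77 and 6.73 in cells labelled KO and 6.30 and 6.44 in WT cells. Tdrd9, a helicase of the same pathway, differed by 0.94 (0.60 without KO-labelled set A). Tdrd1, a tudor protein that binds PIWI proteins, differed by -0.70 (-0.42 without KO-labelled set B) and Rnf17 by -0.51 (pairs -0.80 to -0.27). Among 46 RNA-binding regulators 9 were higher and 5 lower: Igf2bp3, an mRNA-binding protein of fetal tissues, was higher by 0.86 (pairs 0.21 to 1.45), and the lower ones included Lin28a and Lin28b. Rhox5, the founding member of the Rhox cluster, was higher by 0.65 (pairs 0.16 to 1.18), with levels of 1.70, 2.06 and 1.42 in KO-labelled sets A, B and C against 1.26 and 0.89 in WT sets A and B. Only 3 of 25 cluster genes in the table had a mean level of at least 1, and close copies among them can share reads.

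**Figure D4:**
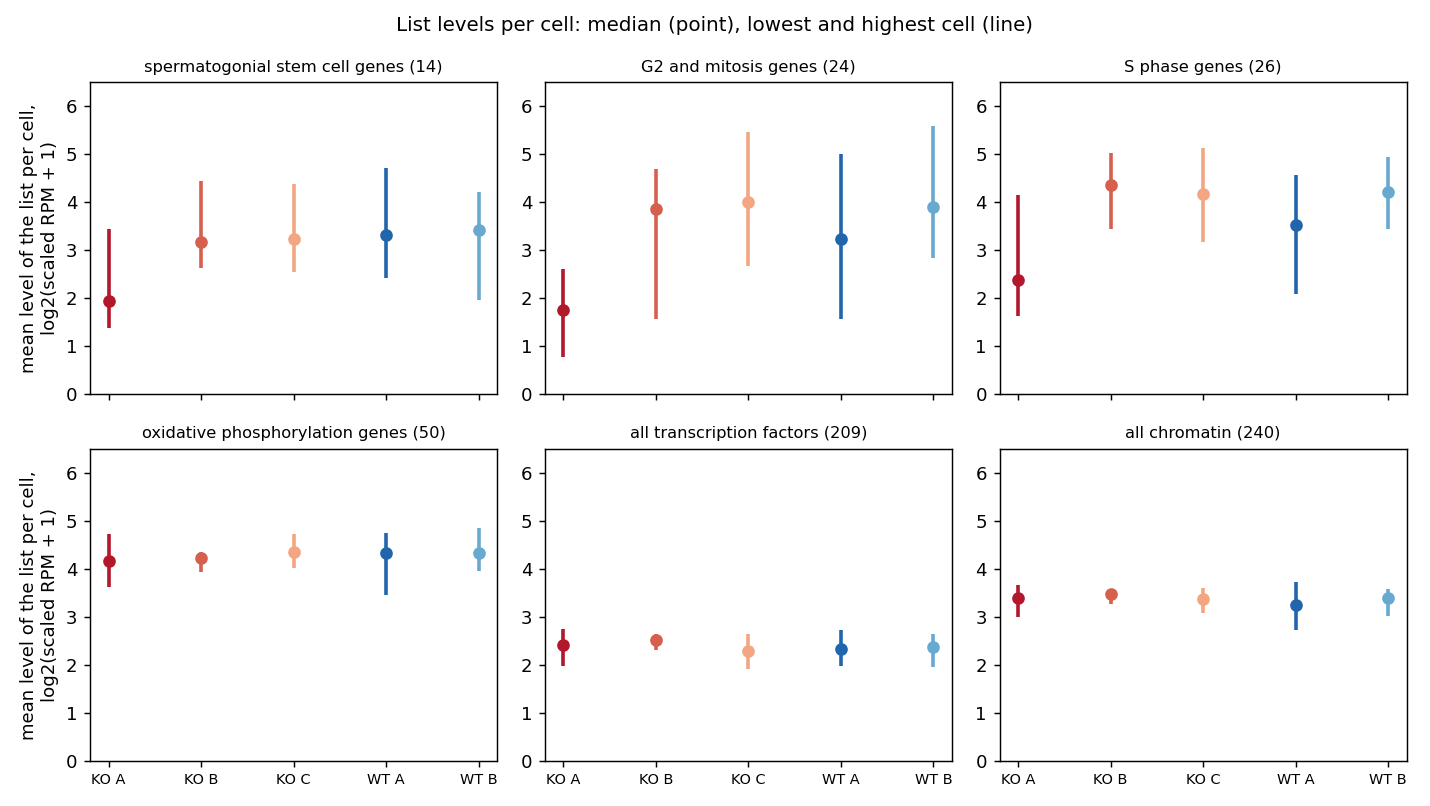
Mean level of 6 lists in each cell, log2(scaled RPM + 1), by lettered set, with KO-labelled sets at left and WT sets at right. Points are the median cell and lines run from the lowest to the highest cell; the number of genes is in parentheses. KO-labelled set A is low in stem cell, G2 and mitosis and S phase genes, while transcription factors and chromatin genes lie at nearly the same level in all 5 sets.

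Cell cycle genes varied widely among sets that share a label. Mean levels of the 24 measured G2 and mitosis genes were 1.80, 3.68 and 4.11 in KO-labelled sets A, B and C, against 3.24 and 4.02 in WT sets A and B. The highest cell of KO-labelled set A reached 2.62, while single cells of the other 4 sets reached at least 4.70. The 26 S phase genes had mean levels of 2.58, 4.31 and 4.23 in KO-labelled sets A, B and C, against 3.48 and 4.23 in WT sets A and B. Their list medians, -0.42 for G2 and mitosis and -0.17 for S phase, became 0.32 and 0.42 without KO-labelled set A. These values keep WT set A, the lower WT set in both lists. KO-labelled sets B and C had G2 and mitosis levels of 3.68 and 4.11, beside 4.02 in WT set B. For S phase they had 4.31 and 4.23, beside 4.23 in WT set B. Ccne2, a cyclin of S phase entry, was the only S phase gene on 1 side, at 0.43 (pairs 0.40 to 0.47). In the 4 pairs without KO-labelled set A, 11 of the 26 S phase genes were higher (42.3%) and none lower, against 18.6% and 19.7% of all genes.

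The oxidative phosphorylation list had 50 measured members, of which 7 stood higher (14%) and 16 lower (32%) in all 6 pairs, against 10.7% and 11.7% of all genes. The median was -0.16 (pairs -0.21 to -0.0046), and -0.082 without KO-labelled set A, -0.075 without WT set B and -0.00025 without scaling. Lower subunits included Ndufa5 (-0.56, and -0.37 without KO-labelled set B) and Ndufb3 (-0.49, pairs -0.66 to -0.17) of complex I and Cox7c (-0.70, pairs -1.03 to -0.20) of complex IV. Cox5a of complex IV (0.84, pairs 0.45 to 1.20), Atp5b of the ATP synthase (0.52, pairs 0.27 to 0.82) and Sdhb of complex II (0.50, pairs 0.21 to 0.83) were higher. Among 17 circadian clock genes 5 were higher and 1 lower: Per3, Bhlhe40, Csnk1d, a kinase of PER proteins (0.49, pairs 0.15 to 0.80), and 2 others stood above, and Nr1d1 below. Of 16 glycolysis genes 2 were lower, Hk2, a hexokinase (-0.88, pairs -1.23 to -0.57), and Aldoc (-1.14, and -0.72 without KO-labelled set A), and none higher. Of 17 p53 target and apoptosis genes 3 were higher and none lower, among them Bax, an effector of apoptosis (0.42, and 0.27 without KO-labelled set B). In the DNA repair list 4 of 53 were higher (7.55%) and 8 lower (15.1%), against 10.7% and 11.7% of all genes. Chek2, a checkpoint kinase, differed by -0.91 (pairs -1.22 to -0.57) and Atm by -0.82 (-0.40 without KO-labelled set A). Hsp90ab1, an abundant chaperone, differed by 0.36 (pairs 0.28 to 0.44), with set levels of 8.91, 8.89 and 8.97 in cells labelled KO and 8.53 and 8.61 in WT cells.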

How the data were processed

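Each deposited sample is 1 mouse testis cell. Per the labels' protocols, the lysis mix held ERCC RNA and Nextera XT gave the libraries. STAR 2.3.0, HTSeq 0.6.1 and mm10 stand in the submitters' processing notes. For gene annotation, strand and reads with several alignments the sources used here give nothing. Although the authors' table is called TPM, its deposited values are RPM: in each cell at least 99.9% of values were whole multiples (within 0.001 RPM) of 1 step, with no gene length term. The total to which the authors scaled this RPM was larger than the table, whose rows summed to 8.13% to 21.7% of it in P3 cells. It held 19642 rows, of which 84 ERCC rows and Rn45s (a median of 5.30% of the listed RPM) were left out, and 19557 genes were analysed.

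Each cell was divided by the median, over the 2783 stable genes, of its value over the gene's geometric mean (pandas 2.3.3). The pseudocount was 1, so differences of low genes are understated. Steps gave totals of 251530 to 10663510 reads per cell. No test or count model was run because no animal is named, and no doublet caller was run. No 2 cells had identical columns. The steps were tested on simulated data in which gene means did not differ between sets of a label. That test therefore does not cover differences between such sets. Coordinates come from GENCODE M21 (GRCm38, which is mm10).

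The cells, genes and 52 lists were chosen with earlier results of these data known. Lists hold 1784 different genes, of which 1764 matched directly or by RefSeq synonym, and share members. The result of 1 signalling list is not reported here. A mean level of 2 was required for counts over all genes and of 1 for lists. Named genes are Rhox10, Id4, Lin28a, Arrdc4 and Klf13, the 15 highest and 15 lowest differences on 1 side in all 6 pairs, and up to 3 on each side per list, without predicted genes. Ret, Gfra1, Etv5, Foxo1, Ddx4, Dazl, Clu, Amh, Txnip, Arrdc3 and genes near Rhox10 are named outside that rule. Alternatives covered scaling, pseudocount, averaging, filters, thinning to 50000 reads per cell and leaving out each set. Leaving out cells whose Sertoli markers sum to over 100 scaled RPM was chosen after seeing the data.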

Additional observations from a re-analysis of the deposited data

How the results depend on the processing

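Without scaling, the median difference of all genes was 0.13, with 839 genes higher and 240 lower in all 6 pairs, 60 and 33 of them by at least 1, and medians of 0.22 for transcription factors, 0.23 for chromatin and 0.16 for signalling genes. With a pseudocount of 10, 1923 were higher and 1638 lower, over more genes, and 0 in either direction by at least 1. With the log2 of mean RPM per set the median was 0.081, with 934 higher, 56 by at least 1, and class medians of 0.16 for chromatin and 0.14 for signalling genes. A level of at least 4 left 152 higher and 194 lower, 2 and 6 by at least 1, and no filter gave 1746 and 1680, with 39 higher by at least 1. After thinning, which kept 69 cells labelled KO and 66 WT cells, 88 genes were lower by at least 1 and the signalling median was -0.016. Leaving out a set gave 667 to 1094 higher and 906 to 1297 lower genes, 28 to 143 and 62 to 131 of them by at least 1, and a transcription factor median from -0.00023 to 0.14. Without KO-labelled set A, 11 list medians changed sign, among them receptor tyrosine kinases (0.11, against -0.30 with it), DNA repair (0.014, against -0.14), TGF-beta and BMP (0.0049, against -0.15), homeobox and POU factors (-0.035, against 0.14) and PI3K, AKT and mTOR (-0.030, against 0.12). Of the list medians with 1 sign in all 6 pairs, these turned: nuclear receptors (0.037 with log2 of mean RPM), Notch, Hedgehog and Hippo (0.074 without scaling, 0.058 with log2 of mean RPM), glycolysis (0.042 without scaling) and H3K9 and H4K20 methylation (-0.019 as a mean over all cells). Leaving out a set gave -0.0010 to 0.37 for GATA, DMRT and T-box factors, -0.055 to 0.21 for H3K9 and H4K20 methylation, -0.012 to 0.17 for the WNT pathway and -0.12 to 0.060 for glycolysis. Among genes, Atp6v1a turned to 0.047 with the log2 of mean RPM. The causes were not tested. Under the alternatives, values of single genes were classed as the same in 2693 cases, as moved in 171 and as reversed in 1. These classes are counts only and give no size. A pseudocount of 10 moved 105 results, list medians and summaries included, more than any other alternative. The mean over all cells gives no pairs and so no counts over pairs. No paired analysis was made because the labels do not say whether a letter links sets across groups, and no test was made. ERCC RNA had medians of 13429, 8120 and 8550 RPM in KO-labelled sets A, B and C, against 11969 and 7465 in WT sets A and B. Set A was thus highest under both labels, and whether a letter stands for a shared step was not tested. Genes near 1 RPM are limited by depth: cells with few reads list them at 0.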
